A study of Mus musculus with 10 samples.

Results

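The 10 genes described here are Aspm, Cdk5rap2, Mcph1, Wdr62, Cenpj, Stil, Cep135, Cep152, Cit and Knl1, whose human counterparts are mutated in primary microcephaly, a recessive disorder in which the brain is small at birth. They were chosen by name, not by a measured value, although earlier results of these data were known. All 10 were found among the 53801 genes of the table and passed the filter on low counts. Bulk RNA-seq libraries had been made from cells of the dorsal mouse brain sorted as NG2+ or GFAP+, with 5 libraries for each population. All animals were wild type. They had been electroporated in utero at embryonic day 12 with StarTrack, a set of reporter plasmids for following the progeny of progenitors, and cells were sorted at embryonic day 14. NG2 is the product of Cspg4, a proteoglycan, while GFAP is the intermediate filament of astrocytes. Both populations are labelled as neural stem cells. All 10 libraries carry the label batch 1. The sources used here do not give the strain, the promoters of the reporters, or whether a library stands for 1 embryo or for several. The p-values therefore measure the spread between these libraries.

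Cortical progenitors divide at the ventricle, and their number sets how many neurons the cortex receives. A dividing progenitor normally has a centrosome at either spindle pole. A centrosome is built around a pair of centrioles that are copied once in each cell cycle. The centrioles are surrounded by pericentriolar material, which anchors microtubules. Stil, Cep152, Cenpj and Cep135 act in copying and elongating centrioles, Cdk5rap2 in the pericentriolar material, and Wdr62 and Aspm at the spindle poles. Although they are grouped with centrosome genes, Knl1 is a scaffold of the kinetochore, Cit encodes citron kinase of the midbody, and Mcph1 is best known for holding back chromosome condensation until mitosis.

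Library totals ranged from 12945436 to 17569730 reads. Cspg4 was at 6.75 ± 1.47 CPM (counts scaled to library size, NG2 mean ± SD, n = 5) against 1.07 ± 0.356 CPM (GFAP mean), and Gfap had 6 reads in all NG2 and 10 in all GFAP libraries. NG2 replicate 5 had reads for 18903 genes, against 22988 to 24444 in the others, and its log2 CPM correlated with theirs at 0.919 to 0.929 across genes. Markers of neurons and of radial glia were both present in each library. The summed level of 11 neuron markers was 5306 to 7408 CPM (NG2) and 4228 to 5647 CPM (GFAP), and that of 14 radial glia markers was 1304 to 2176 CPM (NG2) and 1976 to 2827 CPM (GFAP).

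The 10 genes were expressed in all 10 libraries, at 130 to 1652 reads per gene and library. Levels of different genes are compared here only as the deposited FPKM, which are scaled to gene length and library depth. Knl1 had the highest level, at 9.38 ± 1.65 FPKM (SD over 10 libraries), followed by Cenpj at 6.60 ± 0.977 and Aspm at 6.50 ± 1.31 FPKM. Knl1 stood above Cenpj in 10 of 10 libraries, whereas Cenpj and Aspm differed by less than their spread and each was the higher one in 5 libraries. Stil followed at 4.44 ± 1.41, Cdk5rap2 at 3.94 ± 0.501, Wdr62 at 3.61 ± 0.877, Cit at 3.11 ± 0.873, Mcph1 at 3.11 ± 0.545 and Cep152 at 2.89 ± 0.312 FPKM. Neighbours in this series from Stil to Cep152 differed by less than the larger of their 2 SDs. Cep135, a cartwheel protein of the centriole, was the lowest at 1.80 ± 0.400 FPKM and lay below Cep152 in 10 of 10 libraries.

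**Figure D1:**
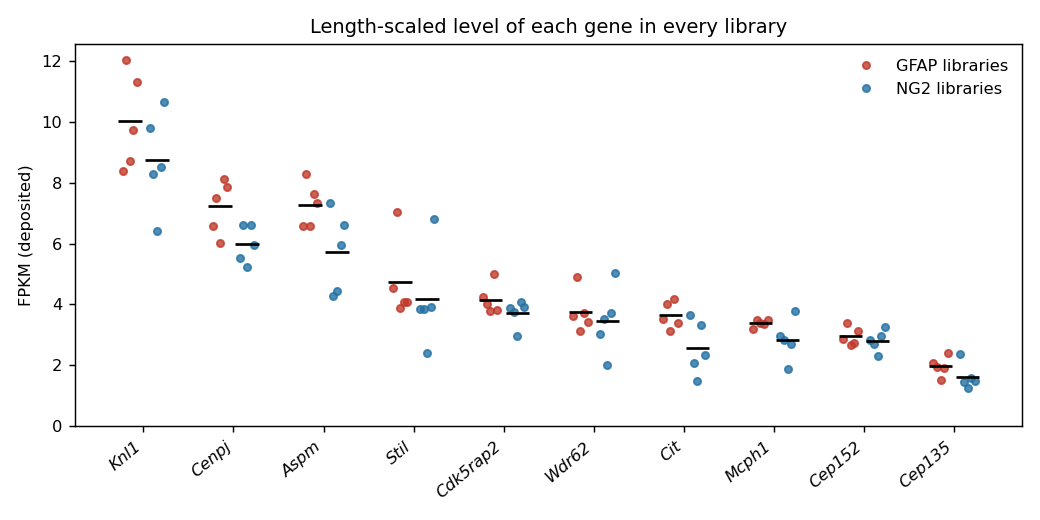
Deposited FPKM (y axis) of the 10 genes (x axis, ordered by mean) in 5 GFAP (red) and 5 NG2 (blue) libraries; each point is a library and each line a group mean. Knl1 is highest, from 6.42 to 12.01 FPKM, and Cep135 lowest, from 1.25 to 2.39 FPKM, and the groups overlap for every gene.

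The RefSeq promoter windows of GRCm38.p6, 250 bases before to 50 bases after a start site, held entries for 9 of the 10 genes (all but Mcph1), with 10 windows in all. Short motifs known from cell cycle genes, chosen with the values of the genes known, were searched on both strands. TTTGAA, the core of the cell cycle genes homology region, was found in 3 of the 9 genes (Aspm, Knl1 and Cdk5rap2), against 20.2% of all 27025 genes with a window. CCAAT, the NF-Y box, was found in 5 (Aspm, Stil, Wdr62, Cep152 and Cep135), against 41.1%. GCGGGAA, an E2F core, was found in 3 (Stil, Wdr62 and Cep152), against 5.29%. Cenpj and Cit held none of these letters. Their windows, chr14:56571797-56572096 (Cenpj, minus strand) and chr5:115845406-115845705 (Cit, plus strand), lie inside the deposited genes. On their own strands these genes begin at 56575425 (Cenpj) and 115845278 (Cit), and the bases around those positions were not searched. A match describes the letters and does not show binding. Of the windows that hold TTTGAA, that of Cdk5rap2 is not printed. The windows of Stil, Wdr62 and Cep152 are printed because they hold GCGGGAA, and those of Aspm and Knl1 because they hold TTTGAA. They run 5′ to 3′ on the strand of the gene, and capitals mark the searched motifs, with ATTGG and TTCCCGC being CCAAT and GCGGGAA on the other strand. They lie at chr4:114999868-115000167 (Stil, plus strand), chr7:30280372-30280671 (Wdr62, minus strand, 1 of its 2 windows), chr2:125625064-125625363 (Cep152, minus strand), chr1:139454523-139454822 (Aspm, plus strand) and chr2:119046869-119047168 (Knl1, plus strand).
Stil: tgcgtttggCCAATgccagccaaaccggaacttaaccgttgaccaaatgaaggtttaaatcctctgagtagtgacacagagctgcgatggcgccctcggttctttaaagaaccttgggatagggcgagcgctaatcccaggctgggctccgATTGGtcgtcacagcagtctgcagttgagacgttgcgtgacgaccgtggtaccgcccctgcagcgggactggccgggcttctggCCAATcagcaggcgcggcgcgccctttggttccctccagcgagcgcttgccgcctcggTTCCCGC
Wdr62: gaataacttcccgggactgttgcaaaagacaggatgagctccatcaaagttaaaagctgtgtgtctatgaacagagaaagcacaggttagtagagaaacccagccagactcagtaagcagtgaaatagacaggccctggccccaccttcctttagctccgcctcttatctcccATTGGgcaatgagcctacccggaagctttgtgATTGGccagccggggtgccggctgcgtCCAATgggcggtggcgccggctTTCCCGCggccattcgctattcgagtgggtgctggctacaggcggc
Cep152: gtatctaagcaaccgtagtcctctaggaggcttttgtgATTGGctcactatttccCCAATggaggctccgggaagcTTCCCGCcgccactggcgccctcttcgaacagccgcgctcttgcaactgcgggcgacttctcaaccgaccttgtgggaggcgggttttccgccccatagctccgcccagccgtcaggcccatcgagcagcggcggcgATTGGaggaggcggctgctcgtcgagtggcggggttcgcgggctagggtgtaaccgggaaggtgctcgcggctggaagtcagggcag
Aspm: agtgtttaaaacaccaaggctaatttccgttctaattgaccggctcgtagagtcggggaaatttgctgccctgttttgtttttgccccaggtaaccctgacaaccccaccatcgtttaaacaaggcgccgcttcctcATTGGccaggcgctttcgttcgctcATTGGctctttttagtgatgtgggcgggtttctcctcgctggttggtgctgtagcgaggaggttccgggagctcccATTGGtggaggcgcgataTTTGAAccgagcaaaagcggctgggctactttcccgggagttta
Knl1: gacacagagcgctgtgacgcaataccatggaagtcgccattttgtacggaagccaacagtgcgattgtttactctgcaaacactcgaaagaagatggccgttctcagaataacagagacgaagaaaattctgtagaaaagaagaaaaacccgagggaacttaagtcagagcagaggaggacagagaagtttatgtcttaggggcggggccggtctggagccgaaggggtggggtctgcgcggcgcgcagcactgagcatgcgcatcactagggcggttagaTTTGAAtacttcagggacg
In the Aspm window, TTTGAA lies at position 7, counted from the start site, and CCAAT lies on the other strand at 3 places. Positions are those of the leftmost base on the printed strand. The E2F letters of Stil lie at position 44, and those of Cep152 lie at position -174.

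None of the 4 centriole assembly genes differed detectably between the populations. Stil, a scaffold that brings the cartwheel protein to the new centriole, measured 26.8, 41.1, 22.8, 23.9 and 24.03 CPM across GFAP replicates 1 to 5 and 22.4, 22.3, 14.05, 22.8 and 39.8 CPM across NG2 replicates 1 to 5. GFAP replicate 2 and NG2 replicate 5 were high, NG2 replicate 3 was low, and the groups overlapped. The means were 27.8 ± 7.62 CPM for GFAP and 24.3 ± 9.44 CPM for NG2 (SD, n = 5), with a log2 fold change (NG2 minus GFAP throughout) of -0.19 with SE 0.24. The Benjamini-Hochberg adjusted p by edgeR was 0.781. Without GFAP replicate 2 the log2 fold change was -0.004, without NG2 replicate 3 it was -0.042, and without NG2 replicate 5 it was -0.44. In bulk libraries, fewer cells that express a gene and less RNA per cell cannot be told apart.

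Cep152, which recruits the kinase that starts centriole copying, measured 16.8, 19.7, 15.6, 16.02 and 18.4 CPM across GFAP replicates 1 to 5 and 16.3, 15.7, 13.4, 17.2 and 18.99 CPM across NG2 replicates 1 to 5. Its log2 fold change was -0.08 (SE 0.14, 95% interval -0.38 to 0.21). With 1 library left out in turn it ranged from -0.14 (without NG2 replicate 5) to -0.014 (without NG2 replicate 3), with -0.030 when GFAP replicate 2 and -0.054 when GFAP replicate 5 was left out. Cenpj, a tubulin-binding protein that sets centriole length, measured 32.6, 37.0, 29.7, 40.2 and 39.0 CPM across GFAP replicates 1 to 5 and 26.9, 32.3, 25.6, 32.6 and 29.3 CPM across NG2 replicates 1 to 5. GFAP replicates 2, 4 and 5 lay well above all NG2 libraries, GFAP replicate 1 (32.62) barely above the highest of them (32.55), and GFAP replicate 3 among them. Its log2 fold change was -0.28 (SE 0.12; by edgeR, Benjamini-Hochberg adjusted p = 0.351). Cep135 measured 15.2, 14.1, 11.2, 13.99 and 17.5 CPM across GFAP replicates 1 to 5 and 17.2, 10.6, 9.04, 11.4 and 10.7 CPM across NG2 replicates 1 to 5. NG2 replicate 1 lay at the level of the highest GFAP library, and 3 NG2 libraries lay below all GFAP libraries. Its log2 fold change was -0.29 (SE 0.19), and it was -0.46 without NG2 replicate 1.

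Of the genes of the pericentriolar material and the spindle poles, Aspm had the largest difference. Aspm binds microtubule minus ends at the spindle poles and helps to keep the spindle in the plane of the ventricle. It measured 77.8, 97.0, 77.0, 89.6 and 86.3 CPM across GFAP replicates 1 to 5 and 85.2, 49.6, 51.6, 69.6 and 77.4 CPM across NG2 replicates 1 to 5. NG2 replicates 2, 3 and 4 lay below all GFAP libraries, while NG2 replicates 1 and 5 lay among them. The means were 85.5 ± 8.37 CPM for GFAP and 66.7 ± 15.7 CPM for NG2, with a log2 fold change of -0.36 (SE 0.14, 95% interval -0.67 to -0.05; by edgeR, Benjamini-Hochberg adjusted p = 0.322). Wdr62, a scaffold of mitotic spindle poles, measured 21.1, 28.4, 18.2, 21.7 and 20.02 CPM across GFAP replicates 1 to 5 and 17.4, 20.2, 11.5, 21.6 and 29.3 CPM across NG2 replicates 1 to 5. The same libraries were high and low as for Stil. Its log2 fold change was -0.13 (SE 0.21), and it turned to 0.022 without NG2 replicate 3. It was -0.014 without GFAP replicate 2, -0.077 without NG2 replicate 1 and -0.30 without NG2 replicate 5. Cdk5rap2, which ties the gamma-tubulin ring complex to the centrosome, measured 56.2, 52.6, 49.6, 66.0 and 50.3 CPM across GFAP replicates 1 to 5 and 50.4, 49.0, 38.8, 53.4 and 51.4 CPM across NG2 replicates 1 to 5. Apart from GFAP replicate 4 and NG2 replicate 3 the values lay between 49.03 and 56.2 CPM. The log2 fold change of Cdk5rap2 was -0.18 (SE 0.12), with -0.097 when GFAP replicate 4 and -0.098 when NG2 replicate 3 was left out.

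The 3 genes best known for roles outside the centrosome included Cit, the gene with the largest estimate by edgeR. By voom with sample weights the log2 fold change of Cit was -0.25, smaller in size than those of Mcph1 (-0.33), Cep135 (-0.29) and Aspm (-0.28). The citron kinase isoform of Cit acts in abscission at the end of cytokinesis, and a shorter isoform is found in neurons. Gene counts add both. Cit measured 59.0, 66.6, 51.9, 69.8 and 56.4 CPM across GFAP replicates 1 to 5 and 59.8, 34.1, 24.5, 54.8 and 38.9 CPM across NG2 replicates 1 to 5. NG2 replicates 2, 3 and 5 lay below all GFAP libraries, and NG2 replicates 1 and 4 within their range. The means were 60.7 ± 7.35 and 42.4 ± 14.7 CPM, a log2 fold change of -0.52 (SE 0.20, 95% interval -0.94 to -0.10; by edgeR, Benjamini-Hochberg adjusted p = 0.306), and without NG2 replicate 3 the log2 fold change was -0.37. Knl1, which carries the spindle checkpoint kinase Bub1 to the kinetochore, measured 72.9, 103.7, 75.1, 84.1 and 98.2 CPM across GFAP replicates 1 to 5 and 83.7, 71.1, 55.1, 73.4 and 91.9 CPM across NG2 replicates 1 to 5. The groups overlapped, with GFAP replicates 2 and 5 at the top and NG2 replicate 3 at the bottom. For Knl1 the log2 fold change was -0.21 (SE 0.14), with -0.11 when NG2 replicate 3 and -0.14 when GFAP replicate 2 was left out. Mcph1 measured 25.5, 27.5, 26.8, 26.5 and 27.8 CPM across GFAP replicates 1 to 5 and 23.1, 22.1, 14.8, 21.2 and 29.9 CPM across NG2 replicates 1 to 5. It was the steadiest of the 10 in the GFAP group, with a coefficient of variation of 3.36%, against 24.2% in the NG2 group, where NG2 replicate 5 was highest of all 10 libraries and the other 4 lay below all GFAP libraries. Its log2 fold change was -0.27 (SE 0.16; by edgeR, Benjamini-Hochberg adjusted p = 0.496), and it was -0.15 without NG2 replicate 3.

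**Figure D2:**
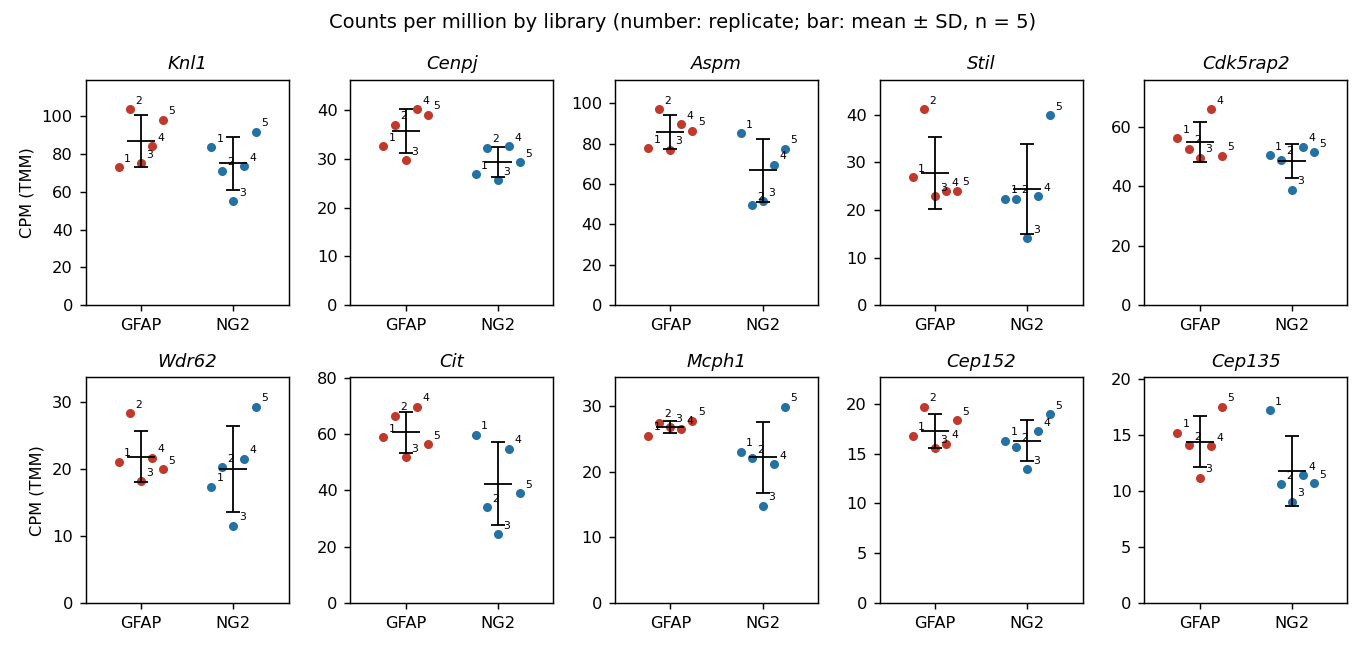
CPM with TMM scaling (y axis, from 0) of each gene in the GFAP (red) and NG2 (blue) libraries; points are libraries with their replicate number and bars show mean ± SD (n = 5). Cit ranges from 24.5 to 59.8 CPM in NG2 and from 51.9 to 69.8 CPM in GFAP libraries, and NG2 replicate 3 is the lowest library for every gene but Aspm.

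Across the 10 genes, each estimate was lower in the NG2 libraries and none passed edgeR's test. By edgeR's quasi-likelihood test, 0 of 10 passed at an adjusted p of 0.05, a threshold that 0.148% of the 16187 genes tested passed in either direction and 0.0741% with a lower level in NG2. With DESeq2 0 of 10 passed as well, while 2.61% of its genes did, 1.01% being lower in NG2. By voom with sample weights 1 of 10 passed, Mcph1 with a log2 fold change of -0.33, while 8.9% of all genes passed and 5.29% were lower. At an unadjusted p under 0.05, 3 of the 10 were lower (Cit, Aspm and Cenpj), against 6.33% of all genes (12.8% in either direction). The groups did not separate for any of the 10, while 3.28% of all genes had no overlap, 1.76% with NG2 below. With the replicate number as a block 0 of 10 passed (0.00618% of all genes), as with GFAP 2 and NG2 5 both left out (1.61%). A log2 fold change below 0 was found for 10 of 10 genes and for 51.5% of all genes tested. Their median was -0.24, against -0.01 over all genes tested, and it was -0.13 without NG2 replicate 3. The genes are not independent of each other, since they share libraries and cells. Expressed as sizes, the 95% intervals reached from a log2 fold change of -0.94 at the lower end (Cit) to 0.31 at the upper end (Stil and Wdr62).

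**Figure D3:**
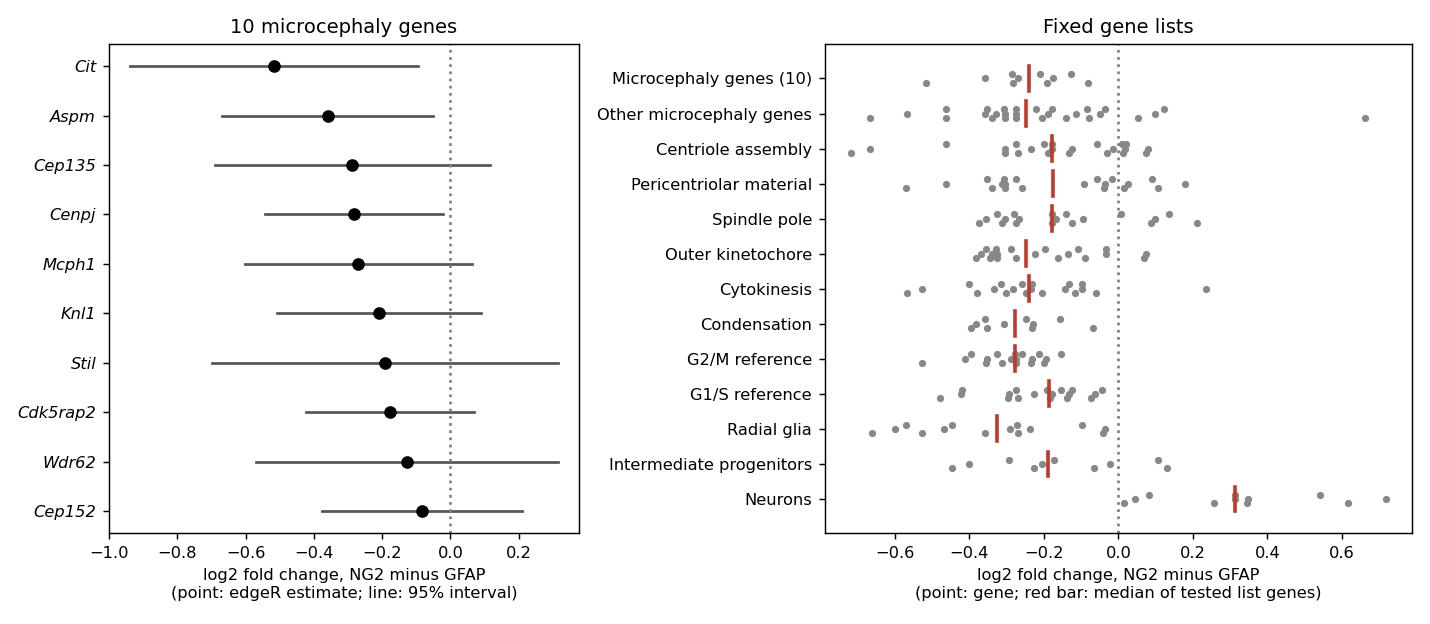
Left, log2 fold change of the 10 genes (x axis, NG2 minus GFAP) with 95% intervals; right, log2 fold changes of the tested genes (grey) of the 10 and of the lists of related genes, cell cycle genes, progenitor and neuron markers, with medians (red). All 10 points lie below 0, from -0.52 for Cit to -0.08 for Cep152, and the median of the 11 neuron markers is 0.31.

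Single libraries stood apart. Against each gene's own mean over the 10 libraries, NG2 replicate 3 was low for 10 of 10 genes, by a mean of -0.59 on the log2 scale, and was the lowest library for 9 of them. NG2 replicate 2 was next with a mean of -0.20, and was the lowest library for Aspm. GFAP replicate 2 was high for 10 of 10 genes, with a mean of 0.32, and was the highest library for 4, namely Aspm, Knl1, Stil and Cep152. NG2 replicate 5 had a mean of 0.12, but its deviations ran from -0.34 for Cit to 0.67 for Stil.

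The same libraries stood apart in genes of the cell cycle and of cell types. GFAP replicate 2 deviated by 0.57 in the mean of 18 G2 and M phase genes, by 0.80 in that of 18 G1 to S phase genes, by 0.60 in radial glia markers and by -0.56 in neuron markers. NG2 replicate 3 deviated by -0.31, -0.32, -0.41 and 0.38 in these lists, and NG2 replicate 2 by -0.26, -0.27, -0.61 and 0.29. Mki67, a marker of cycling cells, stood at 157 ± 41.3 CPM (NG2 mean) against 209.5 ± 30.7 CPM (GFAP mean), and Top2a, the topoisomerase of dividing cells, at 263 ± 28.4 and 346 ± 87.8 CPM. Their log2 fold changes were -0.41 (SE 0.16) and -0.40 (SE 0.15), and neither passed by edgeR (Benjamini-Hochberg adjusted p = 0.315 and 0.298). Markers of other cells were also present. Meningeal markers summed to 4.84 to 20.8 CPM (NG2) and 11.1 to 23.6 CPM (GFAP), endothelial markers to 7.10 to 30.6 and 7.49 to 33.1 CPM, and microglia markers to 26.3 to 343 and 41.4 to 160 CPM. Hemoglobin genes summed to 256 to 501 and 242 to 451 CPM, beside 258 to 418 and 378 to 488 CPM for the 10 genes themselves. In NG2 replicate 5 the endothelial markers Cldn5, Pecam1, Cdh5 and Tek and the meningeal markers Col1a1, Col1a2 and Foxc1 were at 0 reads, and the microglia marker Trem2 was at 0 there, in NG2 replicate 3 and in GFAP replicates 2 and 3. Cdh5 was also at 0 in GFAP replicate 3 and Aldh1a2, a meningeal marker, in NG2 replicate 3. The part of these cells in the results was not tested.

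**Figure D4:**
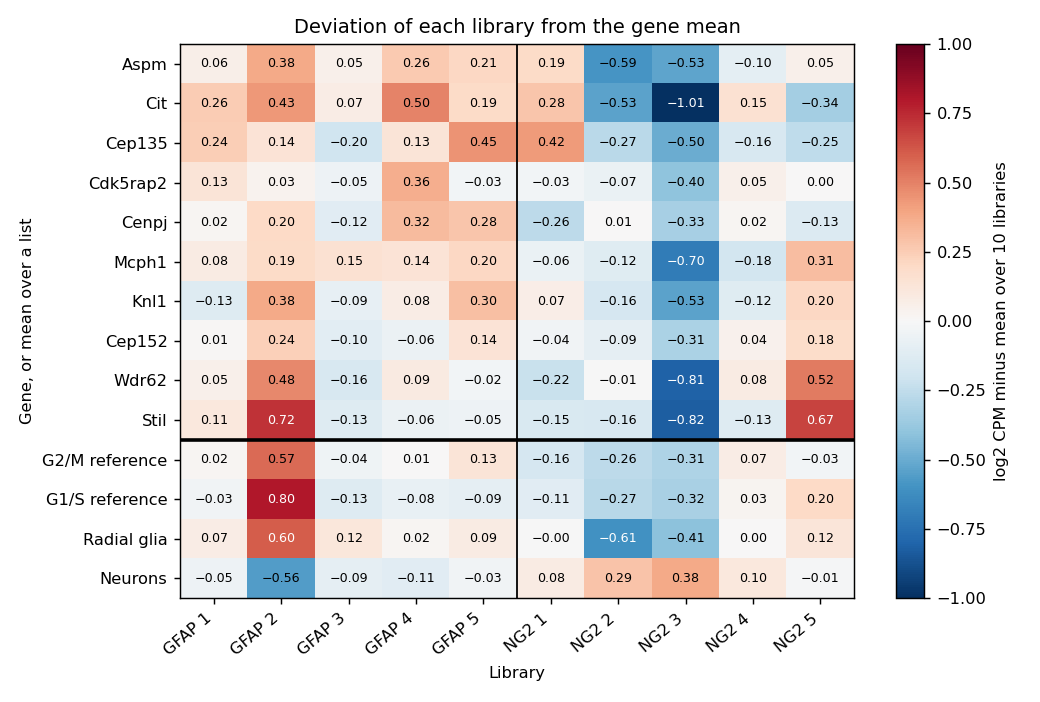
Deviation of log2 CPM from the mean over 10 libraries (colour and printed value) for each gene (rows above the line) and for the mean of 4 marker lists (below it), by library (columns). GFAP replicate 2 is above the mean in all 10 genes and NG2 replicate 3 below it in all 10, while NG2 replicate 5 runs from -0.34 for Cit to 0.67 for Stil.

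Set against the G2 and M phase genes of the same library, the 10 genes lay on either side of 0. With all 10 libraries, per 1000 CPM of those 18 genes, 5 of the 10 had a higher and 5 a lower mean log2 value in the NG2 libraries. The median difference was -0.0011, and all 10 overlapped between the groups. GFAP replicate 2 stood apart here, since its 18 genes summed to 5079 CPM, against 3119 to 3388 CPM in the other GFAP libraries. Its ratio was 10.4 for Cdk5rap2 (14.9 to 19.5 in the others) and 13.1 for Cit (16.6 to 20.6). Of the 10 genes, only Stil was not at its lowest GFAP value there. Low GFAP values raise the NG2 minus GFAP difference, so the balance of 5 and 5 and the median depend on that library. Neither was computed without it. Cit kept the largest difference, at 17.1 ± 2.72 (GFAP) and 14.1 ± 4.63 (NG2, SD, n = 5), a mean log2 difference of -0.32. Aspm stood at 23.98 ± 2.87 and 22.2 ± 4.75, and Cep152 at 4.85 ± 0.606 and 5.43 ± 0.304. Both measures in such a ratio come from the same library, and no test was made of them.

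The genes are also long, from 4874 exonic bases for Cenpj to 16417 for Cit, and libraries differed in the level of long genes. Gene length here is all exonic bases merged over the transcripts of a gene, not the length of any single transcript. Over the 6019 tested genes at least as long as Cenpj, the median deviation was -0.09 in NG2 replicate 3 and 0.08 in GFAP replicate 1, and the median log2 fold change was -0.06, with 59.5% below 0. With a correction for gene length, added after the values were seen, the log2 fold change was -0.40 for Cit, -0.27 for Aspm, -0.28 for Cenpj and -0.06 for Cdk5rap2, the median of the 10 genes was -0.19, and 0 of 10 passed by edgeR. After the correction 0.161% of all genes passed.

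The 10 genes varied together to different degrees. Over the 10 libraries, the Pearson correlation of log2 CPM was positive in 45 of 45 pairs, with a median of 0.64, and is given as a description only, since all pairs share libraries. Stil and Wdr62 were the most similar pair at 0.95, and each of them reached 0.90 with Cep152. Aspm and Cit were each other's closest gene at 0.88, and both lay high in NG2 replicate 1 and low in NG2 replicates 2 and 3. The closest gene was Knl1 for Mcph1 (0.85), Cep152 for Knl1 (0.90), Cit for Cep135 (0.78) and Cdk5rap2 (0.81), and Cdk5rap2 for Cenpj (0.71). Wdr62 and Cep135 were the least similar pair at 0.25. Without GFAP replicate 2 and NG2 replicate 3, the libraries farthest from the median of the genes' mean, the median over pairs was 0.26 and 37 of 45 were positive. These 2 libraries were picked on the same genes, so lower values without them follow in part from the choice. Stil and Wdr62 were at 0.89 and Aspm and Cit at 0.80 without them, Cep152 was at 0.71 with Stil, 0.68 with Wdr62 and 0.69 with Knl1, and Wdr62 and Cep135 were at -0.44.

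**Figure D5:**
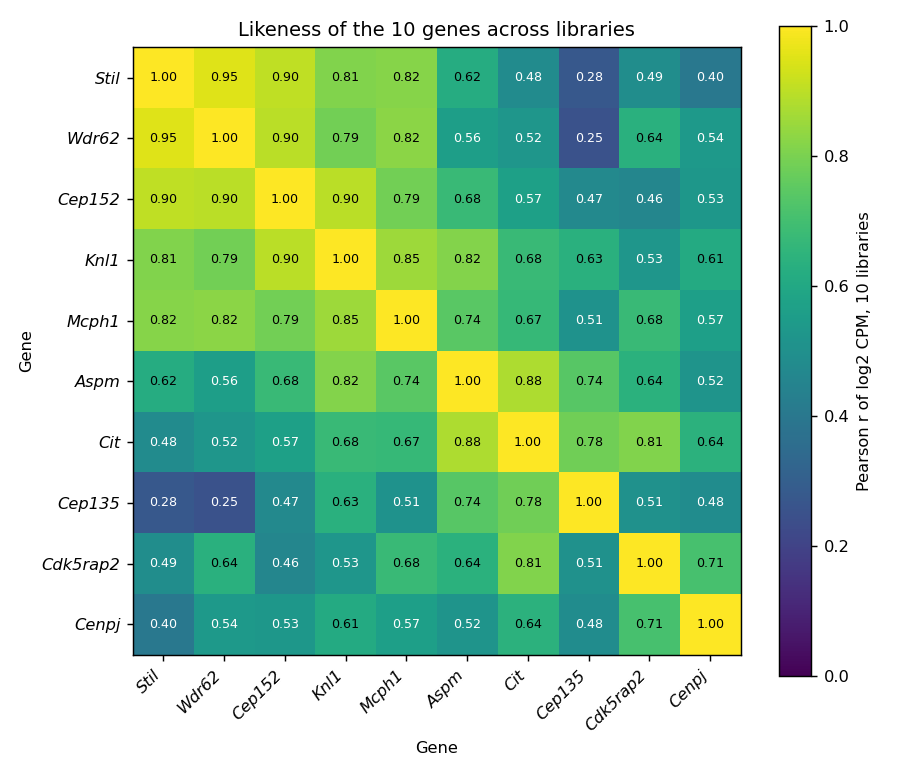
Pearson correlation of log2 CPM over 10 libraries (colour and printed value) for each pair of the 10 genes. Stil and Wdr62 reach 0.95, the pairs of Cep152 with Stil, Wdr62 and Knl1 reach 0.90, and the pair of Aspm and Cit reaches 0.88.

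Among 10450 other protein-coding genes with a mean of at least 5 CPM, the ones most like the mean of the 10 genes were Brca1 (r = 0.97 over 10 libraries, 0.96 without the 2 libraries), Fmnl3 (0.96 and 0.84), Dock1 (0.94 and 0.92), Fanca (0.94 and 0.77) and Clip4 (0.93 and 0.80). These 5 were picked by their likeness over all 10 libraries, so their high values follow in part from the choice, also without the 2 libraries. Brca1 encodes a DNA repair protein. It stood at 27.3 ± 4.95 CPM (NG2 mean) against 34.0 ± 3.56 CPM (GFAP mean), with a log2 fold change of -0.31 (SE 0.14). Fanca, of the Fanconi anemia repair pathway, stood at 21.7 ± 5.60 and 24.9 ± 1.76 CPM. None of the 5 passed by edgeR (Benjamini-Hochberg adjusted p from 0.305 to 0.702).

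In lists of related genes none passed by edgeR with all libraries and its default filter. By voom with sample weights, which called 8.9% of all genes, 3 other microcephaly, 3 centriole, 5 pericentriolar and 2 spindle pole genes were called lower and 1 cytokinesis gene higher. DESeq2 called 1 cytokinesis gene lower (2.61% of all genes, 1.01% being lower). With GFAP 2 and NG2 5 left out, edgeR called 1 spindle pole gene lower (1.61% of all genes, 0.945% being lower). The lists share some genes, and over all genes tested 51.5% lay below 0 with a median of -0.01. Of 28 other genes linked to microcephaly, 24 had a log2 fold change below 0 and 4 above it, with a median of -0.25. Those with the lowest p were Ninl, a ninein-like centrosome protein, at 28.8 ± 5.57 CPM (NG2 mean) against 39.7 ± 4.48 CPM (GFAP mean), the condensin subunit Ncapd2 at 207.5 ± 26.2 and 257 ± 26.3 CPM, and Rttn, a centriole protein, at 10.4 ± 1.93 and 14.3 ± 1.20 CPM. Of 23 centriole genes 17 were below 0 (median -0.18, or -0.094 without NG2 replicate 3 and -0.11 without GFAP replicate 2), among them Spice1 at 11.2 ± 3.52 and 18.4 ± 5.21 CPM, and Cep44 at 32.9 ± 2.41 and 38.7 ± 3.94 CPM. Of 20 genes of the pericentriolar material 15 were below 0 (median -0.18), with Odf2, a protein of centriole appendages, at 115 ± 11.4 and 142 ± 12.1 CPM and the gamma-tubulin complex protein Tubgcp4 at 66.1 ± 6.98 and 80.0 ± 5.96 CPM.

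The next lists hold genes that act with Aspm, Knl1, Cit and Mcph1 in mitosis. Of 19 spindle pole genes 14 were below 0 (median -0.18). Tpx2, an activator of Aurora A, stood at 181 ± 20.5 CPM (NG2 mean) against 231 ± 51.9 CPM (GFAP mean) and Hmmr, a microtubule-binding protein, at 66.7 ± 9.37 and 83.6 ± 16.4 CPM, while the dynein regulator Ndel1 was on the other side at 111 ± 11.3 and 95.6 ± 4.50 CPM. Of 20 outer kinetochore and checkpoint genes 18 were below 0 (median -0.25, but -0.033 without GFAP replicate 2), with the kinetochore motor Cenpe at 127 ± 17.3 and 159.7 ± 19.9 CPM, the checkpoint kinase Ttk at 45.7 ± 6.26 and 58.0 ± 11.1 CPM and Ndc80 at 50.5 ± 3.87 and 65.2 ± 19.5 CPM. Of 20 cytokinesis genes 19 were below 0 (median -0.24, but -0.087 without GFAP replicate 2 and -0.16 without NG2 replicate 3). By voom with sample weights the kinetochore median was -0.033 and the cytokinesis median -0.024. The midzone kinesin Kif23 had the lowest p of these lists, with 66.2 ± 12.1 and 95.4 ± 15.7 CPM, no overlap between the groups and a log2 fold change of -0.53 (SE 0.14; by edgeR, Benjamini-Hochberg adjusted p = 0.155). Incenp, of the chromosomal passenger complex, stood at 105 ± 20.3 and 136 ± 27.0 CPM and Ect2 at 65.5 ± 11.1 and 86.6 ± 22.7 CPM. Of 10 condensation genes 10 were below 0 (median -0.28, but -0.14 without GFAP replicate 2), with the condensin subunit Smc4 at 185 ± 27.1 and 241.5 ± 55.0 CPM.

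The reference and cell type lists also held no gene past the threshold by edgeR with all libraries, TMM scaling and its default filter, before any length correction. DESeq2 called 3 neuron markers higher, and 2 radial glia markers, 2 intermediate progenitor markers and 1 G2 and M phase gene lower. Over all genes it called 2.61%. By voom with sample weights 4 neuron markers and 1 hemoglobin gene were called higher and 2 intermediate progenitor markers lower (8.9% of all genes). By edgeR without an expression filter 2 neuron markers and 1 radial glia marker were called (0.305% of all genes). Of the intermediate progenitor markers, 1 was called with library size scaling (0.124% of all genes) and with the filter at 5 CPM (0.309%). The same count was reached among protein-coding genes alone (0.302%) and after the length correction (0.161%). Without GFAP 2 and NG2 5, edgeR called 1 gene each of the radial glia, intermediate progenitor, neuron and hemoglobin lists (1.61% of all genes). Without NG2 replicate 5 alone it called 1 neuron marker (0.71%). Of 18 G2 and M phase genes 18 were below 0 (median -0.28, but -0.15 without GFAP replicate 2). Of 18 G1 to S phase genes 18 were below 0 (median -0.19). Their median was 0.00033 without GFAP replicate 2, -0.076 without both GFAP 2 and NG2 5, and 0.03 by voom with sample weights. The G1 to S phase genes with the lowest p were Uhrf1 at 144.5 ± 27.6 CPM (NG2) against 193 ± 64.2 CPM (GFAP), Ccne1 at 25.2 ± 4.44 against 33.8 ± 14.3 CPM and Rrm1 at 274 ± 27.6 against 336 ± 108 CPM. Of 14 radial glia markers 14 were below 0 (median -0.32, but -0.18 without GFAP replicate 2), with Sox9 at 94.96 ± 17.4 CPM (NG2 mean) against 141 ± 23.1 CPM (GFAP mean), Pax6 at 98.5 ± 16.3 and 142 ± 26.0 CPM and Nes at 113 ± 34.7 and 171 ± 28.9 CPM. Of 10 intermediate progenitor markers 8 were below 0 (median -0.19, or -0.12 without GFAP replicate 2), with Btg2, an antiproliferative gene of neurogenic divisions, at 208.5 ± 9.72 against 284 ± 28.9 CPM, Eomes at 188 ± 22.3 against 248.6 ± 8.66 CPM and Gadd45g at 285 ± 37.9 against 333 ± 23.7 CPM. All 11 neuron markers tested were above 0 (median 0.31), with Stmn2 at 429 ± 91.4 against 279.6 ± 40.5 CPM, Nefm at 32.3 ± 5.47 against 19.7 ± 4.58 CPM and Tubb3 at 1640 ± 183 against 1289 ± 95.9 CPM. The medians were 0.95 for 9 microglia markers (log2 fold changes of 1.02 for C1qc, 1.13 for Csf1r and 1.03 for C1qb), 0.21 for 6 hemoglobin genes (0.42 for Hba-a1, 0.53 for Hbb-bs and -0.57 for Hbb-y), -0.73 for 7 meningeal markers (-1.46 for Col1a2, -1.36 for Col1a1 and -1.21 for Foxc1) and -0.17 for 6 endothelial markers (-0.69 for Flt1, -0.38 for Kdr and -0.28 for Pecam1). The SEs were 0.48, 0.55 and 0.52 for C1qc, Csf1r and C1qb, and 0.67, 0.72 and 0.70 for Col1a2, Col1a1 and Foxc1. Those of Flt1, Kdr and Pecam1 were 0.66, 0.76 and 0.78. The named meningeal and endothelial genes had few reads, with means from 0.47 CPM (Foxc1, NG2) to 3.12 CPM (Col1a2, GFAP). The microglia median was 0.42 without NG2 replicate 1 and 0.46 by voom with sample weights. With 1 library left out in turn, the hemoglobin median ranged from 0.11 to 0.38, the meningeal one from -1.11 to -0.49 and the endothelial one from -0.47 to 0.22.

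Other annotated genes overlap 5 of the 10 in position, and some reads there could belong to either gene. The pseudogene Ywhaq-ps3 (chromosome 4, 70248636 to 70249373, minus strand, GRCm38) lies within Cdk5rap2 on the same strand, shares 365 exonic bases with it in GENCODE M21 and had 2043 reads over the 10 libraries, against 7868 for Cdk5rap2. Mcph1 contains Angpt2, a ligand of the endothelial receptor Tek, on the opposite strand. Angpt2 had 188 reads against 3737 for Mcph1 and shares no exonic base with it, while the antisense gene Gm16725 shares 190 and had 85 reads. Wdr62 and Thap8 overlap head to head by 264 exonic bases, with 83 reads for Thap8 and 3221 for Wdr62. Cit overlaps Gm42473 and Gm42471, and Cenpj overlaps Gm22431, each with 77 reads or fewer and no shared exonic base.

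On GRCm38, as deposited, the genes lie at chromosome 1, 139454772 to 139494091 (Aspm, ENSMUSG00000033952, plus strand), chromosome 4, 70216856 to 70410443 (Cdk5rap2, ENSMUSG00000039298, minus strand), chromosome 8, 18595131 to 18803189 (Mcph1, ENSMUSG00000039842, plus strand), chromosome 7, 30240138 to 30280419 (Wdr62, ENSMUSG00000037020, minus strand), and chromosome 14, 56526761 to 56575425 (Cenpj, ENSMUSG00000064128, minus strand). The others lie at chromosome 4, 115000159 to 115043196 (Stil, ENSMUSG00000028718, plus strand), chromosome 5, 76588698 to 76646466 (Cep135, ENSMUSG00000036403, plus strand), chromosome 2, 125563088 to 125625113 (Cep152, ENSMUSG00000068394, minus strand), chromosome 5, 115845278 to 116008947 (Cit, ENSMUSG00000029516, plus strand) and chromosome 2, 119047119 to 119105501 (Knl1, ENSMUSG00000027326, plus strand). In GENCODE M21 the longest coding sequence was 9366 bases in 28 exons for Aspm, 6357 bases in 23 exons for Knl1 and 6210 bases in 47 exons for Cit, and 2466 bases in 14 exons for Mcph1. Cit has 7 coding transcripts there, and Cep152 has 1.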

How the data were processed

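Read counts per gene were used as deposited, 1 column of whole numbers for each of 10 libraries. Per the labels' protocols, RNA was amplified with SMARTer chemistry and enriched for poly(A). The submitters' processing notes name HISAT2, featureCounts 1.5.0-p3 and GRCm38.p6; the sources used here do not give the strand setting or the annotation release. The deposited FPKM values were scaled by the authors to gene length and library. The authors' deposited table also gives a group mean signal, a log2 fold change and a p-value with its adjusted form.

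Genes were tested over the whole table with the quasi-likelihood test of edgeR 4.0.16 in R 4.3.3, TMM scaling, edgeR's default expression filter and Benjamini-Hochberg adjustment at 0.05. It was tested on simulated data. Log2 CPM for likeness used a prior count of 2. The 10 genes, the 17 lists (226 symbols, 224 found) and the tests were chosen with earlier results of these data known. Named from each list were genes past the threshold (at most 4) or else the 3 of lowest p, each once, and also Mki67, Top2a, overlapping genes and the 5 genes most like the mean of the 10. Alternatives were other scalings and filters, DESeq2 1.42.0, limma 3.58.1 (voom with sample weights, and limma-trend on log2 FPKM plus 1 or 0.1), protein-coding genes alone, a replicate block, 1 library left out in turn, GFAP 2 and NG2 5 left out together and, added after seeing the data, a gene length correction. The filter passed all 10 genes. Reads without molecular identifiers are not independent molecules.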

Additional observations from a re-analysis of the deposited data

Results flagged for a closer look

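Stil stood at 41.1 CPM in GFAP replicate 2, and its gap to the next GFAP library took up 0.782 of the range of the group, above the critical value of 0.71 for 5 samples. This was 1 of 20 groups of 5 values examined (10 genes in 2 populations), and chance gives about 1 in 20. Stil was also high in NG2 replicate 5, at 39.8 CPM, where the gap stayed under the critical value.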

How the results depend on the processing

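No gene of the 10 passed in any of the 23 alternatives with 1 exception: voom with sample weights called 1 lower (Mcph1, -0.33, Benjamini-Hochberg adjusted p = 0.0409), while it called 8.9% of all genes; all-gene shares ran from 0.00618% to 8.9% over the alternatives. Of 230 values of single genes under the alternatives, 228 kept a negative log2 fold change. The 2 that reversed were Wdr62 at 0.022 without NG2 replicate 3 and Cep152 at 0.0069 by voom with sample weights; the cause was not tested. With 1 library left out in turn 0 of the 10 genes were called, and the log2 fold change ranged from -0.67 to -0.37 for Cit, from -0.46 to -0.27 for Aspm, from -0.34 to -0.23 for Cenpj, from -0.44 to -0.004 for Stil, from -0.30 to 0.02 for Wdr62, from -0.46 to -0.20 for Cep135, from -0.14 to -0.014 for Cep152, from -0.21 to -0.097 for Cdk5rap2, from -0.29 to -0.11 for Knl1 and from -0.40 to -0.15 for Mcph1. With GFAP 2 and NG2 5 left out together 0 of 10 passed, although 109 genes were higher and 154 lower over all genes. Deviations of same-numbered libraries correlated at -0.02 to 0.08, so the numbers are not taken to pair them. With the replicate number as a block, 0 of the 10 passed, the median was -0.26 and 1 gene of the whole table passed, and 1 of 5 GFAP libraries correlated best with its own number. The number of genes called over the whole table was 24 in the edgeR fit, 343 by DESeq2, 1441 by voom with sample weights and 12 by limma-trend.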

Other observations

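In the authors' deposited table, the log2 fold changes of the 10 genes ran from -0.50 for Cit to -0.07 for Cep152, with adjusted p-values from 0.166 for Cit to 0.872 for Cep152. Partners of the centriole genes, chosen after their values were seen, did not pass by edgeR either. Sass6, the cartwheel protein that Stil brings to the new centriole, stood at 18.0 ± 3.96 CPM (NG2) against 22.3 ± 4.06 CPM (GFAP, SD, n = 5). Plk4, the kinase that Cep152 recruits, stood at 4.88 ± 2.72 against 7.75 ± 6.69 CPM.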
